A study of Mus musculus with 6 samples.

Results

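The ATF4 and unfolded protein response genes are 36 genes, fixed by name, that serve the integrated stress response or protein folding in the endoplasmic reticulum (ER). All 36 were matched by symbol among the 27179 genes of the count table. They were followed in cancer-associated fibroblasts (CAFs) of mouse mammary tumors. The tumors came from female raGFP-Wnt1 mice, whose age was not given, in which an MMTV-Wnt1 transgene (a viral promoter active in mammary epithelium) drives tumor formation and a Pdgfra H2B-GFP knock-in allele marks fibroblasts with nuclear GFP. Both groups carried both alleles. Live GFP+ cells negative for TER-119, CD31 and CD45 were sorted from 3 tumors into CD34 negative and CD34 positive fractions, which gave 6 bulk poly(A) RNA libraries, 3 per group and 1 pair per tumor. The comparison asks in which ways the CAFs without CD34 differ from those that keep it.

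ATF4 is a transcription factor whose translation rises when the initiation factor eIF2 is phosphorylated, as happens when amino acids run short, when unfolded protein gathers in the ER or when other stresses act on the cell. Its targets make amino acids, import them, or restrain growth signaling. The unfolded protein response adds the branches of ATF6 and of XBP1, which raise ER chaperones, disulfide isomerases and degradation factors. Fibroblasts that secrete collagen lean heavily on this folding machinery. Since ATF4 is controlled mainly through translation, its mRNA level is a partial view of its activity.

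Without a term for the tumor, none of the 35 members tested passed an adjusted p of 0.05 (0.121% of all genes did). With the tumor as a block, which compares the fractions within each tumor, 5 of the 35 passed, against 8.57% of all genes. Nupr1, Sesn2 and Ddit4 were higher in CD34 negative CAFs, and Vldlr and Slc7a11 were lower. All 5 are transcription factors, stress effectors or amino acid genes, of which 18 were tested. None of the 17 ER folding members passed, and the difference between these parts of the list was not tested. The log2 fold changes of the ER folding members without the block lay between -0.26 and 0.26. Atf4 mRNA itself differed by 0.09 on the log2 scale without the block (SE 0.18, n = 3 per group). In bulk samples such as these, fewer cells of a type and less RNA per cell cannot be told apart.

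Some promoters of the members hold the letters by which these branches are usually read, 15 of 33 with any of the 3 motifs searched, and windows are shown here for members that the results below turn on. Windows came from RefSeq (GRCm38.p6), ran from 250 bases before to 50 bases after a start site and were found for 33 of the 36 members, all but Slc7a5, Hyou1 and Manf. The ATF4 type of element was searched on both strands as TGATGNAA, a composite site for C/EBP and ATF proteins. It was found in 7 of the 33 members (21.2%) and in 4.51% of the 27025 genes with a window. The 7 were Nupr1, Trib3, Chac1, Vldlr, Asns, Slc7a11 and Herpud1. Below, each window is given 5′ to 3′ on the strand of its gene with 20 bases on either side where the upstream sequence allows, and the capitals mark the fixed bases of the motif.
Nupr1, chr7:126625553-126625600, minus strand: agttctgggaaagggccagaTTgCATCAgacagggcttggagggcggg
Vldlr, chr19:27216800-27216847, plus strand: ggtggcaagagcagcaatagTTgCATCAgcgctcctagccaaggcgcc
Asns, chr6:7693210-7693252, minus strand: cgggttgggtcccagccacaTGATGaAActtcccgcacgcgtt
Slc7a11, chr3:50443652-50443699, minus strand: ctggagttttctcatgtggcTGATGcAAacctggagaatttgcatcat

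The matches of Nupr1 and Vldlr read on the opposite strand, those of Asns and Slc7a11 on the strand of the gene. They lie at -110 to -103 of the start site for Nupr1, at -200 to -193 for Vldlr, at -23 to -16 for Asns and at -66 to -59 for Slc7a11. A second match of Slc7a11, on the opposite strand, stands in lower case near the end of its window, at -47 to -40. The windows of Vldlr and Slc7a11 belong to a start site inside the annotated gene. Of these 4 genes with the same motif, Nupr1 was higher in CD34 negative CAFs, and Vldlr and Slc7a11 were lower. The 6 tested genes with a match had log2 fold changes from -1.37 to 1.01 without the block.

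The ER stress element, read by ATF6 and XBP1 together with NF-Y, was searched on both strands as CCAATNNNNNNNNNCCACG. It was found in 7 of 33 members (21.2%), namely Hspa5, Hsp90b1, Calr, Canx, Dnajc3, Pdia6 and Creld2, and in 37 of 27025 genes with a window (0.137%). The related ERSE-II, ATTGGNCCACG, was found in Herpud1 and Dnajb11 among the members (6.06%) and in 0.0444% of genes. The windows below carry these elements in an ER chaperone that binds unfolded protein, in a pair of lectin chaperones and in a degradation factor, with the fixed bases in capitals.
Hspa5, chr2:34772005-34772063, plus strand: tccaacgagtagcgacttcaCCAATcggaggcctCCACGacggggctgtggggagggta
Calr, chr8:84847055-84847113, minus strand: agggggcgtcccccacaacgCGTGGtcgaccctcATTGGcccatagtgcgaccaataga
Canx, chr11:50325780-50325838, minus strand: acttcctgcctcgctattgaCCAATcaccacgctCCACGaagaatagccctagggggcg
Herpud1, chr8:94386357-94386407, plus strand: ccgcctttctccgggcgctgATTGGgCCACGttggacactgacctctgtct

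The element of Calr reads on the opposite strand, the others on the strand of the gene. The 7 members with the ER stress element had log2 fold changes from -0.26 to 0.17 without the block, with a median of -0.02. A match is a run of letters and was not tested as a binding site. The members were listed by name as genes of these branches, so their higher share of matches describes the list and is no result of the CAF libraries.

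Library totals ran from 16238059 to 86609267 counts. Negative library 3 (the CD34 negative library of tumor 3) stood apart with counts for 14314 genes, against 16253 to 19220 in the others, so values without tumor 3 are given where they matter. Cd34, the gene of the sort, was 12.1-fold lower in CD34 negative CAFs with the block, and the groups did not overlap. The fibroblast genes Pdgfra, Col1a1, Col1a2 and Col3a1 were abundant in all 6 libraries, while Pdgfrb was higher (1.92-fold) and Dcn and Lum lower (2.17-fold and 1.66-fold) in CD34 negative CAFs with the block. The 7 fibroblast markers summed to between 67700 and 93700 CPM (counts relative to the library size). Markers of other cells were low beside the fibroblast markers, but not all were low beside the called members. The 7 epithelial keratin and adhesion genes summed to 58.9 to 168 CPM in CD34 negative and 20.6 to 144 CPM in CD34 positive libraries. Their sum was higher in the CD34 negative library of each tumor, with none called. The 7 immune markers summed to 5.14 to 19.3 CPM. The 5 endothelial markers summed to 10.4 to 29.6 CPM in CD34 negative and 55.2 to 122 CPM in CD34 positive libraries, in the latter mostly Tek. Only Tek was called, 8.53-fold lower with the block (adjusted p = 0.00154 in limma). Of the others, Cdh5 was higher and Kdr lower in the CD34 negative library of each tumor. Pecam1 was lower in tumors 1 and 3 and higher in tumor 2, and Emcn was at 0 to 1.64 CPM. The 5 pericyte markers summed to 106 to 128 CPM in CD34 negative and 49.2 to 144 CPM in CD34 positive libraries. Of these, 4 passed with the block (8.57% of all genes did), Notch3 and Mcam higher, Kcnj8 and Abcc9 lower. The remaining marker, Rgs5, was 6.08-fold higher in CD34 negative CAFs without overlap but did not pass (adjusted p = 0.0803 in limma with the block). Tek was at 48.8 to 116 CPM in CD34 positive libraries, where the called member Vldlr was at 32.4 to 59.1 CPM. Notch3 was at 51.8 to 56.0 CPM in CD34 negative libraries, where the called member Sesn2 was at 22.5 to 40.5 CPM. The part of these cells in the members' values was not tested.

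Without a term for the tumor, none of the 35 members passed (lowest adjusted p 0.0735, for Sesn2). That share is read against 0.121% of all 14855 genes tested, and Chac1 had too few counts for the test. At an unadjusted p under 0.05 there were 7 members, Nupr1, Sesn2, Ddit4, Vldlr, Asns, Psat1 and Psph, against 14.3% of all genes. Without the block, edgeR called 0 members (0.0606% of all genes) and DESeq2 called Sesn2 and Vldlr (4.73% of all genes). With the tumor as a block, limma called 5 of 35 members (14.3%), where 8.57% of all genes were called, 4.32% as higher and 4.25% as lower. With the block, edgeR called Nupr1, Sesn2 and Vldlr (3.87% of all genes), and DESeq2 called the 5 and Asns (12.4%). With the block and without tumor 1 or without tumor 2 there were 4 calls each, Nupr1, Sesn2, Ddit4 and Vldlr, against 7.61% and 5.82% of all genes. Without tumor 3 there were 9, Asns, Psat1, Psph and Hspa5 being added as lower, against 13.0% of all genes.

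Counted over all members, the set was close to the background. The CPM of the groups did not overlap for 7 of 35 members, a share near the 20.4% of all genes. The sign was the same in all 3 tumors for 16 members (45.7%), 8 higher and 8 lower, and for 46.3% of all genes. The median log2 fold change without the block was 0.08 over members and -0.03 over all genes. By tumor, the median over members was 0.06, -0.20 and 0.13, so tumor 2 went the other way from tumors 1 and 3.

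**Figure D1:**
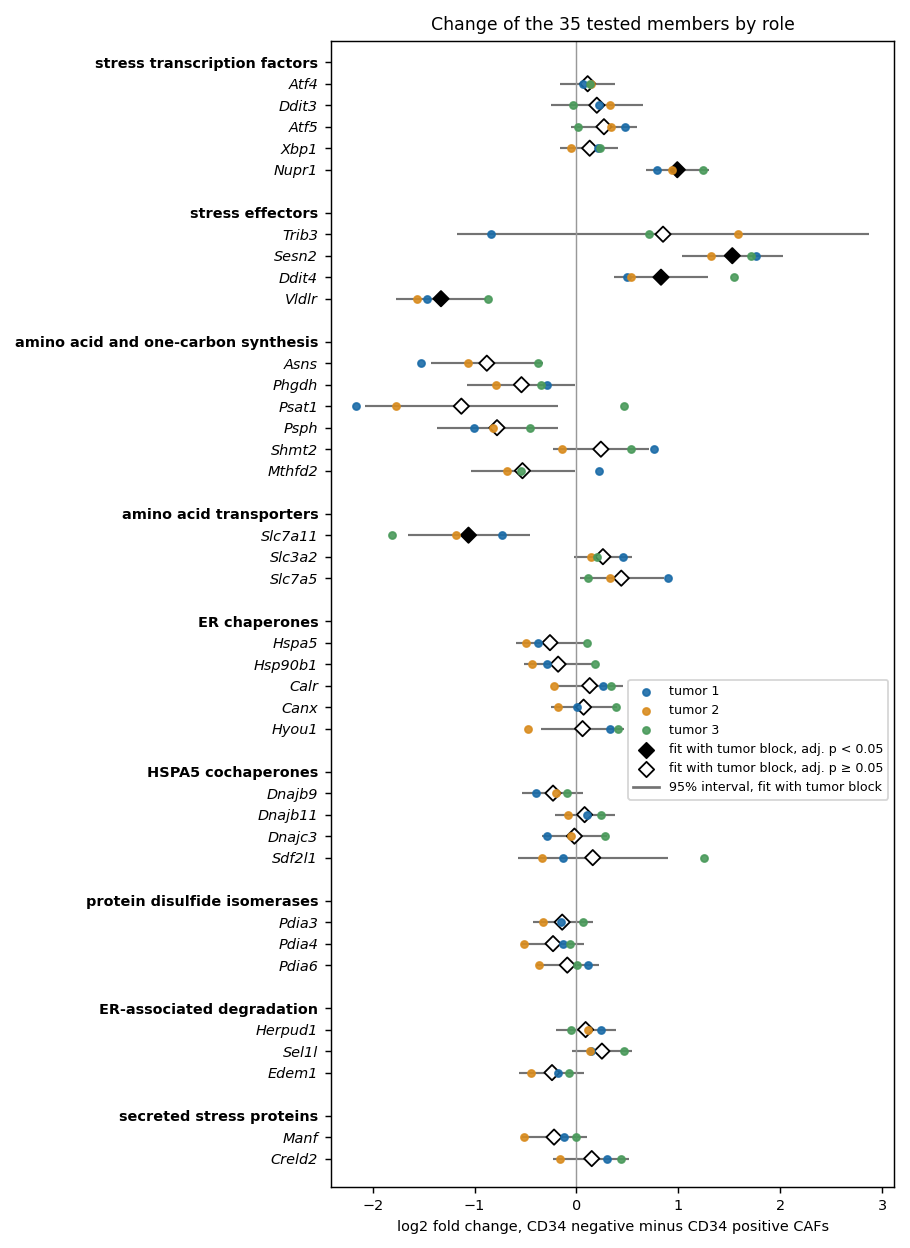
Log2 fold change (CD34 negative minus CD34 positive CAFs, x axis) of the 35 tested members, grouped by role. Coloured points are the ratio within each tumor, diamonds the fit with the tumor as a block with its 95% interval, filled where the adjusted p is under 0.05. The 5 filled diamonds, Nupr1, Sesn2, Ddit4, Vldlr and Slc7a11, are all in the upper groups, and the ER folding genes lie near 0.

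Of the 5 stress transcription factors, all had a fold change above 0 and only Nupr1 passed. Atf4 (chr15:80255184-80257545) was at 322, 264 and 278 CPM in the CD34 negative libraries of tumors 1, 2 and 3, and at 308, 240 and 254 CPM in the CD34 positive libraries. The groups overlapped, with tumor 1 the highest in both fractions. The difference was 0.11 with the block (95% interval -0.16 to 0.38, adjusted p = 0.652).

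Ddit3, which encodes the pro-apoptotic factor CHOP downstream of ATF4, was at 23.7, 17.9 and 16.4 CPM in CD34 negative and 20.4, 14.2 and 16.7 CPM in CD34 positive libraries. These ranges overlapped, and tumor 3 had nearly the same level in both fractions. The difference with the block was 0.20 (95% interval -0.25 to 0.65, adjusted p = 0.619). Ddit3 shares its locus with Mbd6 and Mars1, and since the strand setting of the counting was not stated, their reads may not be fully apart from its 4750 counts.

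Xbp1, whose mRNA is spliced by IRE1 to give the active factor, was at 194, 191 and 218 CPM in CD34 negative and 168, 198 and 187 CPM in CD34 positive libraries. Gene counts do not separate its spliced and unspliced forms. The ranges overlapped, and the difference with the block was 0.13 (95% interval -0.16 to 0.41, adjusted p = 0.626). Atf5, an ATF4 target and itself a stress factor, had a difference of 0.27 with the block (adjusted p = 0.298), though its annotation overlaps Nup62.

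Nupr1, a small stress-induced chromatin protein, was at 247, 171 and 166 CPM in CD34 negative and at 143, 88.7 and 70.2 CPM in CD34 positive libraries (chr7:126623246-126625470). Every CD34 negative library was above every CD34 positive library. The log2 ratios within tumors were 0.79, 0.94 and 1.24, and Nupr1 was 1.99-fold higher with the block (log2 fold change 0.99, SE 0.14, adjusted p = 0.00331). Without the block the size was 2.01-fold and the adjusted p = 0.170. Divided by gene length in kilobases, as RPKM, its level averaged 311 in CD34 negative CAFs, rank 5 among the members, and 160 in CD34 positive CAFs, rank 6.

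Some of the stress effectors, such as Sesn2 and Ddit4, act against growth signals. Sesn2 encodes a leucine sensor that holds back the growth kinase complex mTORC1, and it had the largest change of the 5 members called with the block. It was at 40.5, 22.5 and 29.3 CPM in CD34 negative and 11.9, 8.99 and 8.93 CPM in CD34 positive libraries (chr4:132492804-132510456). The lowest CD34 negative library was thus well above the highest CD34 positive library. The ratios within tumors were 1.76, 1.32 and 1.71 on the log2 scale, and Sesn2 was 2.90-fold higher with the block (adjusted p = 0.00393).

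Ddit4 (REDD1), a further inhibitor of mTORC1 that also answers to hypoxia and glucocorticoids, was at 89.4, 88.5 and 90.2 CPM in CD34 negative and 63.3, 60.8 and 30.9 CPM in CD34 positive libraries. Its level was nearly equal in the CD34 negative libraries, and the groups did not overlap. It was 1.77-fold higher with the block (log2 fold change 0.83, SE 0.20, adjusted p = 0.0370). Tumor 3 had the widest gap (1.55 on the log2 scale, against 0.50 and 0.54), and without tumor 3 the change was 0.51 (adjusted p = 0.0344). With edgeR and the block it was not called.

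Vldlr, a lipoprotein receptor that ATF4 and PERK are known to raise in stressed cells, went the opposite way. It was at 21.4, 11.4 and 17.8 CPM in CD34 negative and 59.1, 34.0 and 32.4 CPM in CD34 positive libraries (chr19:27216480-27254231). All CD34 negative libraries were below all CD34 positive libraries. It was 2.51-fold lower with the block (log2 fold change -1.33, SE 0.20, adjusted p = 0.00455), and the ratios within tumors were -1.47, -1.57 and -0.87. Trib3, a pseudokinase that dampens ATF4 signaling, was at 0.285 to 1.46 CPM and had a 95% interval of -1.17 to 2.87 with the block. Chac1, which breaks down glutathione, had 0 to 44 counts per library, with 0 in both libraries of tumor 3, and was not tested.

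**Figure D2:**
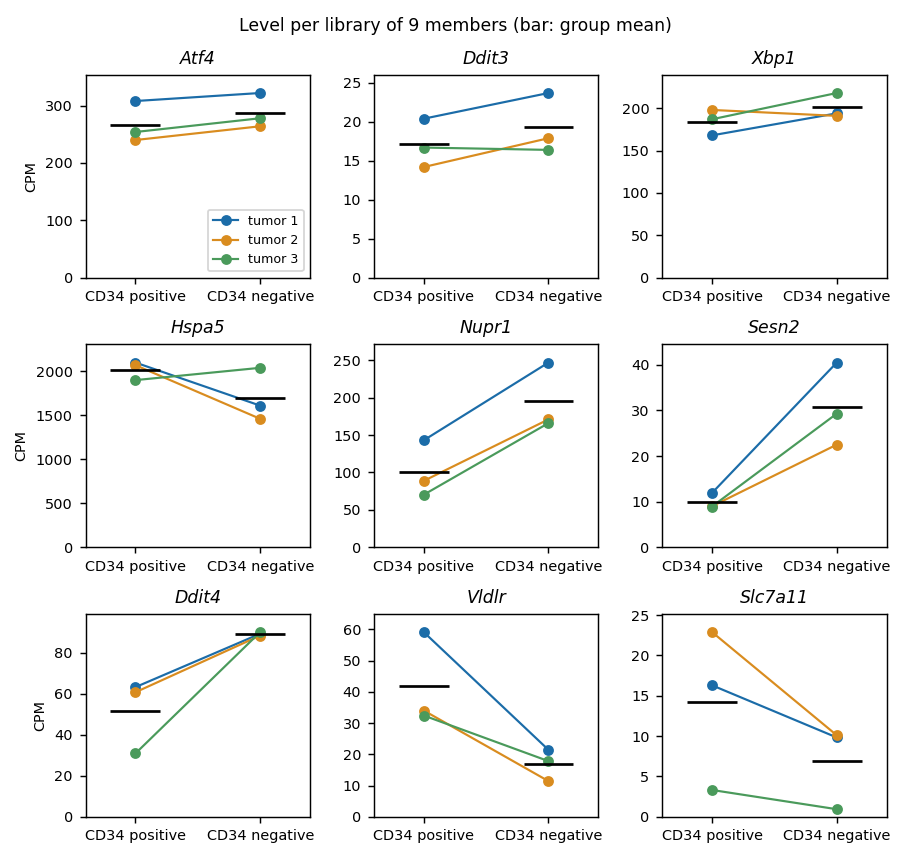
Level in CPM (y axis, from 0) of 9 members in the CD34 positive and CD34 negative library of each tumor, joined by a line, with group means as bars. Nupr1, Sesn2 and Ddit4 lie higher and Vldlr and Slc7a11 lower in the CD34 negative library of every tumor, whereas Atf4, Ddit3, Xbp1 and Hspa5 overlap.

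The enzymes that make amino acids and one-carbon units did not pass, although 5 of the 6 had a fold change below 0. Their median log2 fold change without the block was -0.81. Asns, which makes asparagine, was at 3.58, 14.0 and 16.0 CPM in CD34 negative and 10.3, 29.2 and 20.8 CPM in CD34 positive libraries. The groups overlapped because tumor 1 was low in both fractions, yet within each tumor the CD34 negative library was the lower. The ratios were -1.53, -1.06 and -0.38, and the change with the block was -0.88 (95% interval -1.43 to -0.33, adjusted p = 0.0594). Without tumor 3 it was -1.18 (adjusted p = 0.00563), and without tumor 2 it was -0.69 (adjusted p = 0.524).

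Of the serine pathway enzymes, Psat1 was at 3.70, 9.10 and 17.1 CPM in CD34 negative and 16.6, 31.1 and 12.4 CPM in CD34 positive libraries. It was lower in tumors 1 and 2 (log2 ratios -2.16 and -1.77) and higher in tumor 3 (0.47), with an adjusted p of 0.144 with the block. Without tumor 3, the tumor of opposite sign, its change was -1.91 (adjusted p = 0.000470 in limma with the block). That fit rests on tumors 1 and 2 alone, which share their sign, and it called 13.0% of all genes. Without tumor 2 the change of Psat1 was -0.44 (adjusted p = 0.788). Psph, the last enzyme of serine synthesis, was at 5.77 to 8.28 CPM in CD34 negative and 8.64 to 14.6 CPM in CD34 positive libraries, without overlap, and had ratios of -1.01, -0.82 and -0.46 (adjusted p = 0.111 with the block). It overlaps Cct6a, which had 20766 counts against 2609 for Psph. Phgdh, the first enzyme, had a change of -0.54 with the block (adjusted p = 0.209).

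The mitochondrial folate enzymes went apart. Mthfd2 had a change of -0.53 (adjusted p = 0.207) and Shmt2 one of 0.24 (adjusted p = 0.559), both with the block. Shmt2 overlaps Ndufa4l2, which had 7887 counts against its 7738.

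Among the amino acid transporters, Slc7a11, the cystine importer that feeds glutathione synthesis, was lower. It was at 9.83, 10.1 and 0.935 CPM in CD34 negative and 16.3, 22.9 and 3.32 CPM in CD34 positive libraries. Both libraries of tumor 3 were far below the rest, so the groups overlapped, but the CD34 negative library was the lower in each tumor (-0.73, -1.18 and -1.81). It was 2.08-fold lower with the block (log2 fold change -1.06, SE 0.27, adjusted p = 0.0394). The call was lost with edgeR and the block, and without tumor 1 or tumor 2.

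Slc3a2, the heavy chain with which Slc7a11 and Slc7a5 pair, had a change of 0.26 with the block (adjusted p = 0.262), and Slc7a5, the importer of large neutral amino acids, one of 0.44 (adjusted p = 0.189). Both were higher in the CD34 negative library of all 3 tumors. The 3 transporters thus did not share a direction.

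**Figure D3:**
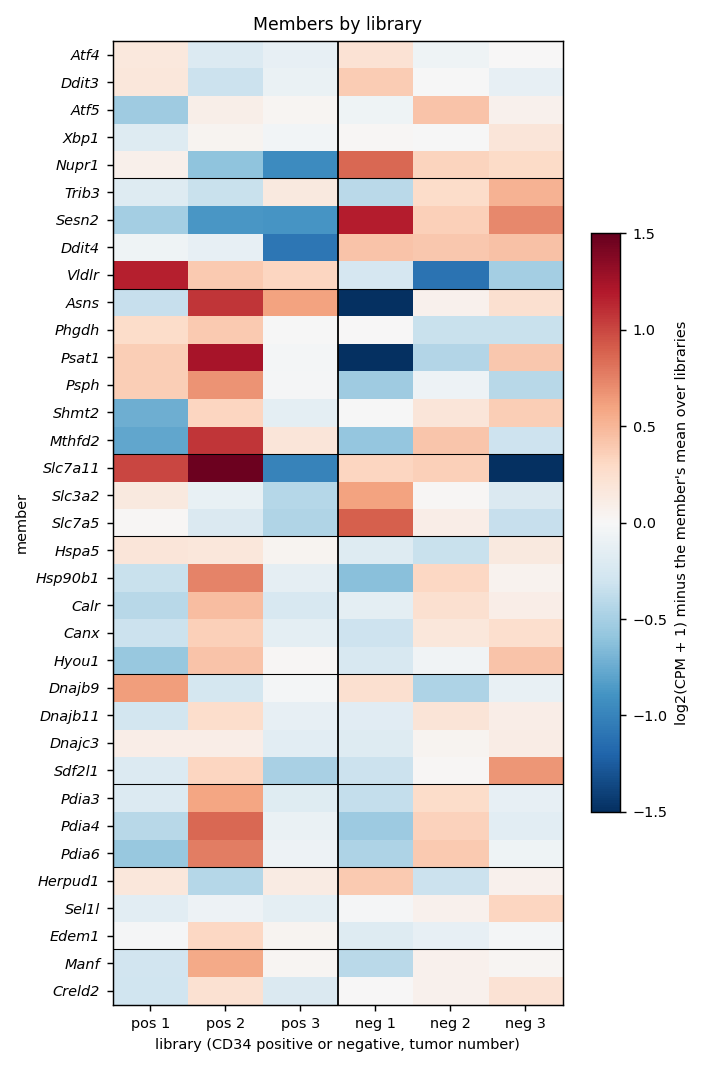
Log2(CPM + 1) of each tested member minus its mean over the 6 libraries, with libraries in columns (pos, CD34 positive; neg, CD34 negative; tumor number) and lines between roles. The colour scale ends at 1.5 and -1.5. Nupr1, Sesn2, Ddit4 and Vldlr divide the groups, while Hsp90b1, Calr, Canx and the disulfide isomerases are highest in positive library 2.

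The 17 ER folding members are the chaperones, their cochaperones, the disulfide isomerases, the degradation factors and the secreted stress proteins. None passed without or with the block. With the block, each of their 95% intervals included 0. The lowest bound was -0.59, for Hspa5, and the highest was 0.90, for Sdf2l1. For each gene, a change inside its own interval was not excluded at this number of tumors. Their median log2 fold change without the block was -0.02. The sign was the same in all 3 tumors for 4 of 17 (23.5%, against 46.3% of all genes). By tumor, the median was -0.12, -0.33 and 0.18, so the direction differed between tumors. Their summed level was 6110, 8180 and 7970 CPM in CD34 negative and 6850, 10500 and 7120 CPM in CD34 positive libraries, with positive library 2 the highest.

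Hspa5 (BiP), the ER HSP70 whose release from the stress sensors starts the response, was at 1610, 1460 and 2040 CPM in CD34 negative and 2100, 2070 and 1900 CPM in CD34 positive libraries. The groups overlapped through tumor 3. It was lower in tumors 1 and 2 (-0.38 and -0.50) and slightly higher in tumor 3 (0.10), with a change of -0.26 with the block (95% interval -0.59 to 0.08, adjusted p = 0.350). Without tumor 3, the tumor of opposite sign, the change was -0.45 (adjusted p = 0.0486 in limma with the block, from tumors 1 and 2 alone). Without tumor 2 it was -0.15 (adjusted p = 0.888). Per length it was the most abundant member in both groups, at 651 and 773 RPKM in CD34 negative and CD34 positive CAFs, followed by Hsp90b1, Pdia3 and Calr.

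The other chaperones were as close to 0. Hsp90b1 (GRP94), the ER HSP90, had a change of -0.18 with the block, and Calr and Canx, the lectin chaperones of glycoproteins, had 0.13 and 0.07. Hyou1, the exchange factor of Hspa5, had 0.06. The cochaperones Dnajb9, Dnajb11, Dnajc3 and Sdf2l1 had -0.23, 0.08, -0.02 and 0.16. Sdf2l1 was the most variable of them, with ratios of -0.13, -0.34 and 1.25.

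The disulfide isomerases Pdia3, Pdia4 and Pdia6 had changes of -0.14, -0.23 and -0.09 with the block. All 3 were highest in positive library 2, at 1730, 479 and 647 CPM. With sample quality weights, which give less weight to libraries that stand apart, their changes turned to 0.06, 0.04 and 0.18.

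Of the degradation factors, the groups did not overlap for Sel1l and Edem1, whose differences had opposite signs and did not pass. Sel1l, the partner of the ubiquitin ligase HRD1, was at 182, 192 and 231 CPM in CD34 negative and 165, 175 and 166 CPM in CD34 positive libraries (0.25 with the block, adjusted p = 0.296). Edem1, which extracts misfolded glycoproteins from the folding cycle, was at 61.5, 64.4 and 69.2 CPM against 69.6, 87.8 and 72.6 CPM (-0.24, adjusted p = 0.353). Both gaps were small in size, near 1.2-fold. Herpud1, which scaffolds the degradation complex, had 0.09, and the secreted stress proteins Manf and Creld2 had -0.22 and 0.15.

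Plasma cells, which are rich in ER folding genes, left little trace. Mzb1 and Pou2af1 had 0 counts in all 6 libraries, Tnfrsf17 had counts in 1 library (0.0664 CPM), and Jchain was at 0 to 1.38 CPM. Sdc1, which fibroblasts also express, was at 127 to 210 CPM in CD34 negative and 70.5 to 135 CPM in CD34 positive libraries and passed with the block.

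Of 9 genes that respond to tissue dissociation, 3 passed with the block (8.57% of all genes did) and none without it. The inducible HSP70 genes Hspa1a and Hspa1b and the immediate early gene Ier2 were higher in CD34 negative CAFs, whereas Fos, Fosb, Jun, Junb, Egr1 and Dnajb1 did not pass. Hspa1a was at 240, 403 and 451 CPM in CD34 negative and 118, 181 and 141 CPM in CD34 positive libraries, and Hspa1b is a near-identical copy of it, so the counting may have split their reads. Their cytosolic partner Dnajb1 had a change of -0.01 (adjusted p = 0.971). The 9 genes summed to 25600, 17700 and 21000 CPM in CD34 negative and 22100, 14800 and 19000 CPM in CD34 positive libraries, higher in the CD34 negative library of each tumor. The part of dissociation in the changes of Nupr1, Sesn2 and Ddit4 was not tested.

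The rest of the pathway was described by 108 further genes, of which 106 were tested and Cth and Cbs were too low. None passed without the block (0.121% of all genes did), and 4 had an unadjusted p under 0.05 (14.3% of all genes). Also without the block, 0 passed with edgeR (0.0606% of all genes) and with DESeq2 (4.73%). With the block 4 passed (3.77%, against 8.57% of all genes), 1 higher and 3 lower. The median log2 fold change of the list was -0.08 without the block. The count of genes that passed was 1 with edgeR and the block, where 3.87% of all genes were called. It was 7 with DESeq2 and the block (12.4% of all genes) and 12 with the block and without tumor 3 (13.0% of all genes). Groups did not overlap for 8 of 106 (7.55%, against 20.4% of all genes).

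The sensors and regulators of eIF2, among them Eif2ak3 (PERK), Ern1 (IRE1) and Atf6, held no call among 18 genes. Their median log2 fold change was -0.05 without the block. Of the 18 other ATF4 targets tested, 7 had a fold change above 0 and 11 below 0 without the block, with a median of -0.08. Stc2 and Atf3 passed with the block (11.1%, against 8.57% of all genes). Stc2, a secreted glycoprotein, was at 73.7, 62.1 and 22.9 CPM in CD34 negative and 38.3, 32.8 and 8.96 CPM in CD34 positive libraries. Tumor 3 was low in both fractions, which made the groups overlap, and the CD34 negative library was the higher in each tumor. It was 1.99-fold higher with the block (SE 0.17 on the log2 scale, adjusted p = 0.00788).

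Atf3, a stress-induced repressor that is also an immediate early gene, was at 933, 449 and 734 CPM in CD34 negative and 1550, 591 and 1220 CPM in CD34 positive libraries. The groups overlapped, with the CD34 negative library the lower in each tumor (-0.73, -0.40 and -0.73). It was 1.54-fold lower with the block (adjusted p = 0.0192). Atf3 was not called with edgeR and the block.

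The aminoacyl-tRNA synthetases, which charge tRNAs and are ATF4 targets in part, had 14 of 20 fold changes below 0 without the block, with a median of -0.24. Lars and Eprs passed with the block (10.0% of the list, against 8.57% of all genes). Lars, for leucine, was at 33.5, 47.9 and 38.7 CPM in CD34 negative and 66.9, 69.3 and 55.6 CPM in CD34 positive libraries, without overlap, and was 1.58-fold lower (adjusted p = 0.0303). Eprs, for glutamate and proline, was at 94.8, 132 and 126 CPM against 121, 201 and 180 CPM, with overlap, and was 1.41-fold lower (adjusted p = 0.0422). Both calls were absent with edgeR and the block and without tumor 2, and that of Lars also without tumor 1.

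The 17 other ER folding enzymes, the 14 other degradation genes and the 19 genes of translocation and N-glycosylation held no call with the block. Their median log2 fold changes without the block were 0.01, 0.09 and -0.13.

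**Figure D4:**
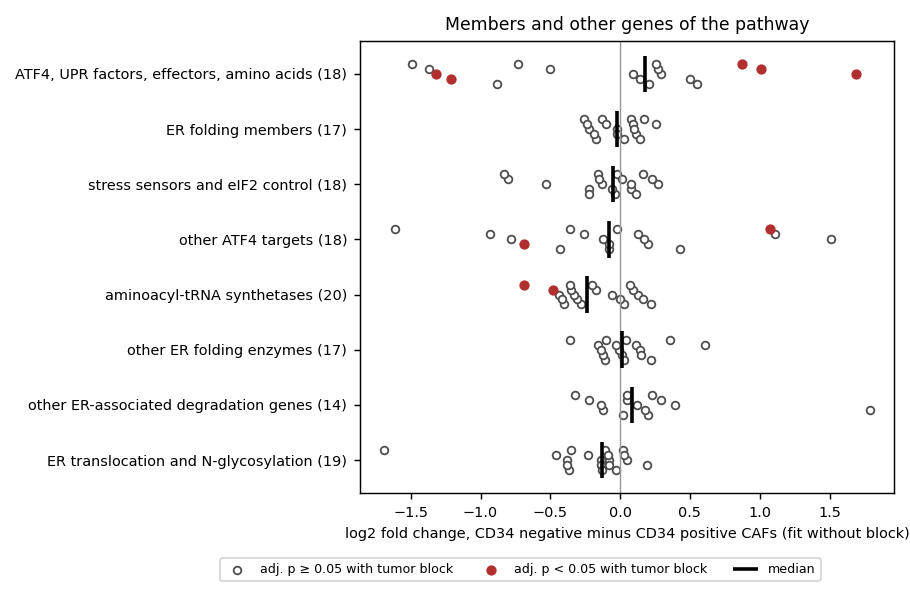
Log2 fold change without the block (x axis) of the members, split into ATF4, stress and amino acid genes and ER folding genes, and of the other pathway lists, with the number tested in brackets. Each point is a gene, red where the adjusted p is under 0.05 with the block, and bars are medians. The ER folding members stay within 0.5 of 0, and called genes lie in the ATF4 lists and the synthetases.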

How the data were processed

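RNA of 6 sorted CAF libraries was sequenced. The authors aligned reads to GRCm38/mm10 and counted them per gene with Rsubread (featureCounts per the labels), and what they deposited are unscaled raw counts. The strand setting was not given in the sources used here, so overlapping genes may share reads. Groups and tumor numbers came from the sample titles.

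Counts of 27179 genes were filtered with filterByExpr (minimum count 10), which left 14855, and scaled by TMM (edgeR 4.0.16). They were compared with voom and limma 3.58.1 in R 4.3.3, two-sided, with Benjamini-Hochberg adjustment over all genes tested and a threshold of 0.05. CPM include the TMM factor, and log2 fold changes are CD34 negative minus CD34 positive. RPKM divide CPM by the gene length of the table. Intervals are 95% intervals.

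Both fractions came from each tumor, so tumor number pairs the libraries. Deviations from group means correlated at 0.373, 0.35 and 0.219 within tumors 1, 2 and 3. The filter, scaling and test are those the study names. Whether its model held a tumor term is not given in the sources used here, so the main fit has none and a fit blocked on the tumor accompanies it. Without the block, the p-values measure the spread between the 3 libraries of each fraction and leave the pairing unused. With the block, they measure how much the difference between fractions varies over the 3 tumors. Other alternatives were edgeR's quasi-likelihood test, DESeq2 1.42.0, its size factors, no filter, sample quality weights and leaving out each library or tumor. The tests were run on simulated counts with changes planted in well-expressed genes, larger than those of the members. How often they find changes of the sizes seen here was not checked.

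Values per library are given for Atf4, Ddit3, Xbp1, Hspa5 and each member called with or without the block. Other members for which they are given were chosen after their values were seen. In the other pathway lists, up to 4 called genes each are named. The members and lists were chosen with earlier results of these data known. Of 108 listed pathway genes, 3 were found under a newer symbol. Promoter windows and gene positions are RefSeq's.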

Additional observations from a re-analysis of the deposited data

How the results depend on the processing

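Without the tumor block, 0 members and 0 other pathway genes passed with limma, with DESeq2 size factors, without a low-count filter, with edgeR and with sample quality weights. DESeq2 without the block called 2 members (4.73% of all genes). With the replicate block there were 5 members and 4 other pathway genes, where 8.57% of all genes were called. With edgeR and the block there were 3 and 1 (3.87% of all genes), and with DESeq2 and the block 6 and 7 (12.4%). Leaving out each library, or each tumor with the block, gave 0 to 9 members and 0 to 12 other pathway genes. The highest counts came without tumor 3, where 13.0% of all genes were called. The members' median ranged from -0.12, without tumor 3, to 0.14. It was 0.05 to 0.09 in the other fits. With sample quality weights the sign turned for Hsp90b1 (0.00), Sdf2l1 (-0.03), Pdia3 (0.06), Pdia4 (0.04), Pdia6 (0.18) and Herpud1 (-0.05).

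Without single libraries, the log2 fold change changed sign for Trib3 (-0.07 to 1.36), Hsp90b1 (-0.36 to 0.15), Calr (-0.02 to 0.39), Canx (-0.04 to 0.27), Hyou1 (-0.17 to 0.30), Dnajb9 (-0.42 to 0.03), Dnajb11 (-0.02 to 0.23), Dnajc3 (-0.11 to 0.06), Sdf2l1 (-0.19 to 0.48), Pdia3 (-0.27 to 0.12), Pdia4 (-0.45 to 0.14), Pdia6 (-0.35 to 0.28), Herpud1 (-0.11 to 0.28) and Manf (-0.39 to 0.02). With the block it did so for Canx (-0.10), Hyou1 (-0.12), Dnajb11 (-0.01) and Sdf2l1 (-0.28) without tumor 3, for Hyou1 (-0.05) and Dnajc3 (0.11) without tumor 1, and for Pdia6 (0.05) without tumor 2. None of these genes was called in any of those fits, and the cause was not tested. Nupr1 (0.78 to 1.26), Sesn2 (1.44 to 1.89), Ddit4 (0.51 to 1.08) and Vldlr (-1.53 to -0.96) kept their sign whichever library or tumor was omitted.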

Other observations

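Further secreted ATF4 targets, chosen after their values were seen, lay in the direction of Stc2. Most of their list went the other way, with 11 of 18 fold changes below 0 without the block. Gdf15, a stress hormone that lowers appetite, was at 8.71, 6.78 and 2.56 CPM in CD34 negative and 1.55, 2.81 and 0.882 CPM in CD34 positive libraries, with log2 ratios of 2.47, 1.27 and 1.52 (adjusted p = 0.0750 in limma with the block, 0.0115 in DESeq2 with the block). Fgf21, a metabolic stress hormone, was at 6.82, 8.77 and 3.66 CPM against 3.34, 4.42 and 0.776 CPM, with ratios of 1.02, 0.99 and 2.21 (adjusted p = 0.114 in limma with the block, 0.0470 in DESeq2 with the block). For both genes the groups overlapped, and tumor 3 was the lowest in each fraction.

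The folate enzyme Mthfd1l, also chosen after its values were seen, was lower in all 3 tumors (-0.32, -1.15 and -2.15, adjusted p = 0.0672 with the block). Derl3, a degradation factor typical of secretory cells, was at 2.64, 1.22 and 4.37 CPM in CD34 negative and 0.805, 0.784 and 0.388 CPM in CD34 positive libraries. Its groups did not overlap, but its adjusted p was 0.262 with the block.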
